A study of Mus musculus with 7 samples.

Results

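The genes of the G1 restriction point were followed across 7 RNA-seq samples of Eμ-Ret B-cell precursor (BCP) cells, namely the D cyclins Ccnd1, Ccnd2 and Ccnd3, the E cyclins Ccne1 and Ccne2, the kinases Cdk4 and Cdk6, and the pocket-protein genes Rb1, Rbl1 and Rbl2. They were taken by name from the table of FPKM values (fragments scaled to the length of the transcript and the depth of the library), in which 10 of 24341 genes carried these names, and all 10 passed the filter on low values. Preleukemic BCP cells (n = 4) came from the spleens of young mice that were still healthy, and leukemic cells (n = 3) from the spleens of older mice with overt disease. Every mouse, in both groups, was hemizygous for the Eμ-Ret transgene on a BALB/c background, in which a Ret oncogene is driven in the B lineage by an immunoglobulin heavy-chain enhancer, so no sample without the transgene was compared. Age and disease state changed together between the groups and cannot be told apart.

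D cyclins bind Cdk4 and Cdk6 and start the phosphorylation of the retinoblastoma protein and its relatives p107 (Rbl1) and p130 (Rbl2), which hold E2F transcription factors in check. Cyclin E, itself an E2F target, acts with Cdk2 to complete that phosphorylation as cells pass into S phase. In normal B-cell precursors cyclin D3 is the D cyclin that pre-B-cell expansion depends on, and cyclin D1 is little used.

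The leukemic samples held a different mix of D cyclins from the preleukemic samples. Ccnd3 fell to 0.605 of its preleukemic mean and Ccnd1 rose to 5.31 times its own, although Ccnd3 was still the most abundant D cyclin in every sample. None of the other 8 genes passed the test, so that Cdk4, Cdk6, both E cyclins and all 3 pocket-protein genes were not called. The call of Ccnd1 lay at the threshold (limma adjusted p = 0.0496). The Ccnd3 share of D-cyclin FPKM differed without overlap, with p = 0.114 in an exact permutation test after adjustment. The 2 calls among 10 genes stand against 14.7% of the 10541 genes tested (8.47% called higher and 6.26% called lower). The samples of the groups did not overlap for 5 of the 10 genes (3 higher and 2 lower), beside 32.0% of all genes tested (14.9% higher and 17.1% lower), and the median log2 fold change was 0.07 for the 10 genes and -0.02 for all genes. Fold changes are leukemic minus preleukemic on the log2(FPKM + 1) scale, which understates the change of low genes, and a call is an adjusted p under 0.05 in limma over all genes tested.

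**Figure D1:**
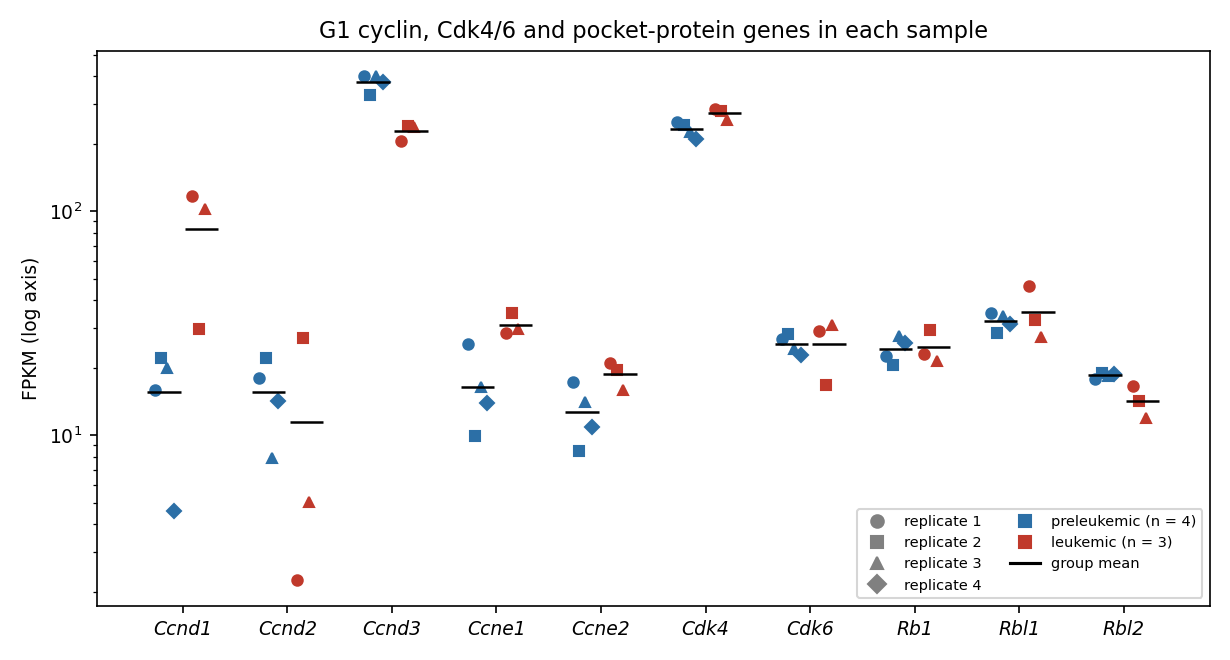
FPKM (log axis) of the 10 genes in each sample, with preleukemic samples in blue, leukemic samples in red, replicate numbers as symbols and group means as bars. Ccnd3 lies between 329 and 402 in the preleukemic samples and between 206 and 240 in the leukemic samples, and Ccnd1 between 4.59 and 22.2 and between 29.9 and 117.

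The samples held about 13580000 to 16100000 fragments, as read from the steps between low FPKM values, at which 73.9% to 78.5% of those values were whole fragments within 0.1. At that depth the lowest value of any of the 10 genes, 2.24 FPKM for Ccnd2, stood for about 210 fragments. This is a counting error of 6.90%, taken with the gene's longest transcript, and a shorter transcript would raise it. BCP markers were present throughout, since the summed FPKM of 14 markers was 8051 to 10064 in the preleukemic and 4053 to 6177 in the leukemic samples, with 4 of the 14 (Vpreb1, Igll1, Pax5 and Ebf1) called lower and none called higher. Markers of other spleen cells moved the opposite way, although the labels give both groups as sorted by flow cytometry. All 14 red cell precursor markers tested were called higher, with sums of 5457 to 24858 against 405 to 2626, as were 8 of 11 macrophage markers (169 to 390 against 39.2 to 92.3), 4 of 11 neutrophil markers (1451 to 1813 against 153 to 888) and 4 of 5 platelet markers (15.1 to 57.0 against 2.62 to 4.23). None of the 8 T and NK cell markers tested was called in limma, with 3 at an unadjusted p under 0.05 (16.5 to 93.9 against 21.2 to 30.5), and no marker on any of these lists was at the table's floor in all samples. In such bulk samples fewer cells of a type and less RNA per cell cannot be told apart, and the part of these cells in the results that follow was not tested.

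Ccnd3 (chr17:47505051-47599689, plus strand, GRCm38) encodes cyclin D3 and carried the largest level of the 10 genes in each preleukemic sample. Its FPKM was 402, 329, 400 and 379 in preleukemic replicates 1 to 4 and 206, 240 and 239 in leukemic replicates 1 to 3. The highest leukemic sample lay well under the lowest preleukemic sample, and the spread was small in both groups (377 ± 33.7, SD, n = 4, against 228 ± 19.1, SD, n = 3). The log2 fold change was -0.72 (SE 0.10, limma adjusted p = 0.0109). Without each sample in turn it lay between -0.79 and -0.65. Among these fits the adjusted p was highest without preleukemic replicate 4. It was 0.0494 with the tested genes kept, and 0.0501 when the filter on low values was applied again to the other 6 samples. With the tested genes kept, the unadjusted limma p was 0.000696 there and 0.000691 without preleukemic replicate 3, where the adjusted p was 0.0421. Over all genes 149 and 271 were called in these fits, in that order.

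The fall of Ccnd3 ran against its chromosome. The other 591 genes tested on chromosome 17 stood at 0.35 on the log2 fold change scale at their median, and the medians in the single leukemic samples were 0.35, 0.33 and 0.38 above the preleukemic mean. Of these genes 199 were called higher and 2 lower, and only 13 had a lower log2 fold change than Ccnd3. Ccnd3 thus lay 1.07 log2 units under the median of its chromosome. For the other 9 genes the median of the chromosome was between -0.08 and -0.03. On chromosome 14, which carries Rb1, the medians in leukemic replicates 1 to 3 were -0.07, -0.11 and 0.13.

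**Figure D2:**
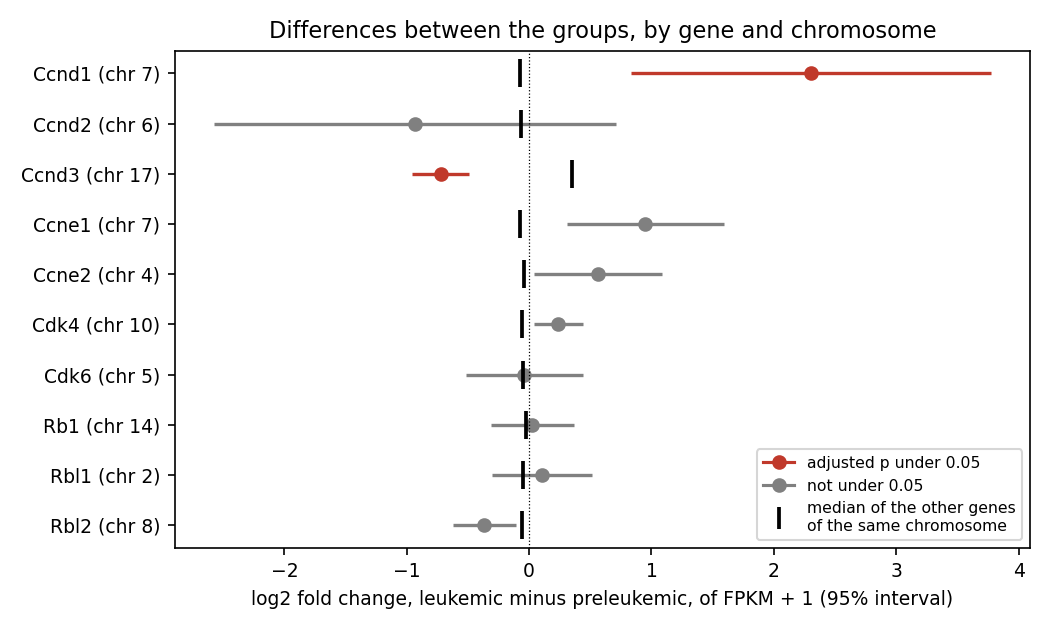
Log2 fold change (leukemic minus preleukemic, of FPKM + 1) of each gene with its 95% interval, in red where the adjusted p was under 0.05, and the median of the other genes on its chromosome as a black tick. Ccnd3 lies at -0.72 while its chromosome lies at 0.35, and Ccnd1 has a wide interval, from 0.83 to 3.77.

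RefSeq gives Ccnd3 a pair of promoters about which the gene-level FPKM says nothing separately. They are shown because Ccnd3 had the smallest adjusted p of the 10 genes, with bases that lie in an exon left out, at chr17:47504801-47505050 and chr17:47593217-47593435 on the plus strand (RefSeq, GRCm38.p6).
Ccnd3, first start: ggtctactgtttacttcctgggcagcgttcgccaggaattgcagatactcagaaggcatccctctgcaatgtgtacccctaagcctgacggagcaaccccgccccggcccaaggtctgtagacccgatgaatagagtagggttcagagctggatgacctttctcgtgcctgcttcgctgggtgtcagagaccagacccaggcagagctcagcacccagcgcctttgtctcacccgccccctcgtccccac
Ccnd3, second start: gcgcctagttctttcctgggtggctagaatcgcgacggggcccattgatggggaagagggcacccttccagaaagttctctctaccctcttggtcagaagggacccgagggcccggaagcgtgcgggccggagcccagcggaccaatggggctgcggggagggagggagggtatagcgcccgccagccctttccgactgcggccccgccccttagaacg
Neither stretch held the E-box CACGTG, one of the E2F words TTTCCCGC, TTTCGCGC, TTTGCCGC and TTTGGCGC, or the cell cycle word TTTGAA on either strand, which says only that these letters are not in this window. Over 32851 promoter windows of the same length, 6.02% held the E-box, 1.86% an E2F word and 16.0% TTTGAA.

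Ccnd1 (chr7:144929931-144939831, minus strand) encodes cyclin D1. Its FPKM was 15.9, 22.2, 20.03 and 4.59 in the preleukemic replicates and 117, 29.9 and 102 in the leukemic replicates. Leukemic replicates 1 and 3 were far above every preleukemic sample, while leukemic replicate 2 stood only a little above the highest of them. The log2 fold change was 2.30 (SE 0.63, limma adjusted p = 0.0496), and Ccnd1 lay above 768 of the other 781 genes tested on chromosome 7. That call lay at the threshold. It was kept without leukemic replicate 2 (2.92, adjusted p = 0.0250) and lost without any one of the other 6 samples (1.84 to 2.52, adjusted p of 0.0812 to 0.110). Leukemic replicate 2 was also the leukemic sample with the highest red cell precursor and macrophage marker sums (24858 and 390).

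Ccnd2 (chr6:127125162-127152188, minus strand), which encodes cyclin D2, varied most within the leukemic group. Its FPKM was 18.05, 22.1, 7.94 and 14.2 in the preleukemic replicates and 2.24, 27.1 and 5.00 in the leukemic replicates. Leukemic replicates 1 and 3 lay under all preleukemic samples and leukemic replicate 2 above all of them. The log2 fold change of -0.93 (SE 0.70) did not pass the test (limma adjusted p = 0.373), and it ranged from -0.27 without leukemic replicate 1 (adjusted p = 0.801) to -1.82 without leukemic replicate 2 (adjusted p = 0.0353). The sample with the least Ccnd1 among the leukemic samples was thus the one with the most Ccnd2.

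As a share of D-cyclin FPKM, which is a level per transcript length, Ccnd3 made up 92.2%, 88.2%, 93.5% and 95.3% in the preleukemic replicates and 63.3%, 80.8% and 69.0% in the leukemic replicates. The groups did not overlap, and the difference of -21.2 percentage points had p = 0.0286 in a two-sided exact permutation test over 35 labelings, the smallest p such a test can give, or 0.114 after adjustment over the 4 shares tested. Ccnd1 took 36.0%, 10.1% and 29.5% in the leukemic replicates against 1.15% to 5.93% in the preleukemic samples. Ccnd2 took 0.688%, 9.12% and 1.45% against 1.86% to 5.91%. The sum of the 3 D cyclins was itself lower, at 323 ± 24.6 FPKM (SD, n = 3) against 409 ± 28.6 (SD, n = 4), with exact permutation p = 0.0286 and 0.0762 after adjustment over the 4 sums tested. The gain of Ccnd1 in FPKM was therefore smaller than the loss of Ccnd3.

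**Figure D3:**
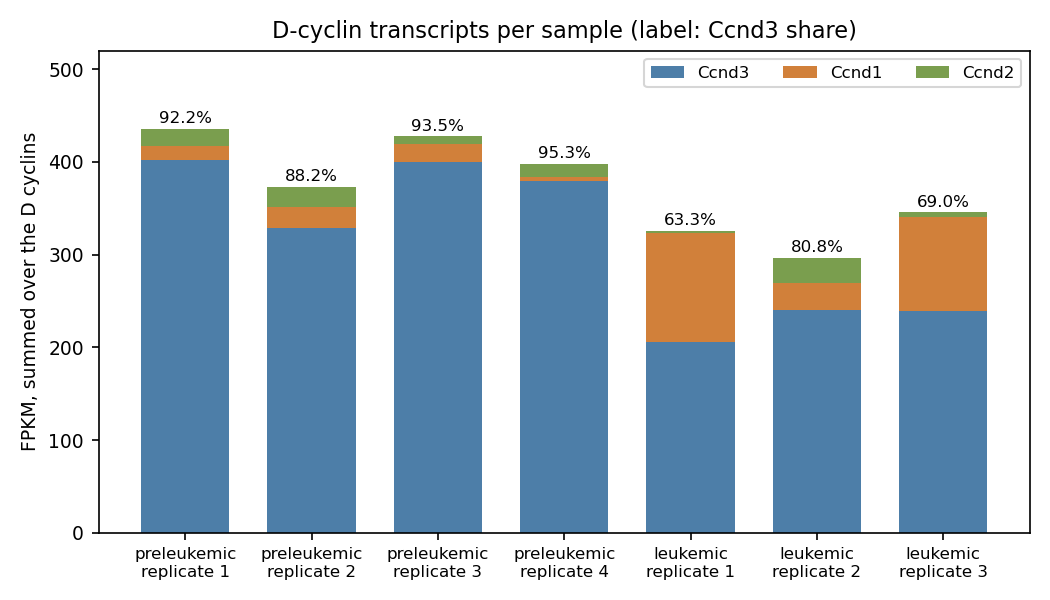
FPKM of Ccnd3, Ccnd1 and Ccnd2 stacked for each sample, with the Ccnd3 share printed above each bar. The bars reach 373 to 436 in the preleukemic samples and 297 to 346 in the leukemic samples, and the Ccnd1 part is largest in leukemic replicates 1 and 3.

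The E cyclins were both higher on average in the leukemic samples, and neither passed the test. Ccne1 (chr7:38097984-38107490, minus strand) had 25.6, 9.96, 16.5 and 13.9 FPKM in the preleukemic replicates and 28.5, 35.2 and 29.8 in the leukemic replicates. The groups did not overlap, but preleukemic replicate 1 came close to the leukemic samples. The log2 fold change was 0.95 (SE 0.27, limma adjusted p = 0.0580), and without preleukemic replicate 1 it was 1.18 with an adjusted p of 0.0205. That sample also had the highest red cell precursor sum of its group (2626, against 405 to 435 in the other 3).

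Ccne2 (chr4:11190433-11204779, plus strand) followed Ccne1 closely across the samples (Pearson r = 0.941 over 7 samples of both groups, given as a description). Its FPKM was 17.3, 8.53, 14.1 and 10.8 in the preleukemic and 20.9, 19.5 and 15.9 in the leukemic replicates. Preleukemic replicate 1 overlapped with the leukemic range, and the log2 fold change was 0.56 (SE 0.22, limma adjusted p = 0.124). The Ccne2 share of E-cyclin FPKM was 37.6% ± 4.17 (SD, n = 3) for the leukemic group and 44.1% ± 2.80 (SD, n = 4) for the preleukemic group (exact permutation p = 0.0857, 0.171 after adjustment over the 4 shares). Summed, the E cyclins stood at 49.4, 54.7 and 45.7 FPKM against 42.9, 18.5, 30.5 and 24.7 (exact permutation p = 0.0571, 0.0762 after adjustment over the 4 sums).

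Cdk4 (chr10:127063535-127067288, plus strand) was by far the more abundant of the kinase genes. It had 250, 243, 226 and 211 FPKM in the preleukemic replicates and 285, 280 and 257 in the leukemic replicates. All 3 leukemic samples lay above all 4 preleukemic samples, by a narrow margin. The log2 fold change was 0.24 (SE 0.08, 95% interval 0.04 to 0.44) and did not pass (limma adjusted p = 0.0984). It was 0.13 (-0.09 to 0.34) with quantile normalization and 0.073 (-0.14 to 0.29) with equal FPKM sums.

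The promoter of Cdk4 stands out among the 6 genes for which a RefSeq promoter sequence was used here (Ccnd3, Ccne1, Cdk4, Cdk6, Rbl1 and Rbl2) by the number of E-boxes, the word bound by Myc and related factors. It is shown at chr10:127063285-127063533 (plus strand) with each CACGTG in capitals, and that of Rbl1 at chr2:157204535-157204784 (minus strand) with its E2F word in capitals.
Cdk4: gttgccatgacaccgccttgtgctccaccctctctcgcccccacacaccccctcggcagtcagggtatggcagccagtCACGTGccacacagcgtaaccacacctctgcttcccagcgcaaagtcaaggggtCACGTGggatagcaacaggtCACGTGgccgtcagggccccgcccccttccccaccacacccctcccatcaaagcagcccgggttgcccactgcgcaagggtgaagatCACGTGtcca
Rbl1: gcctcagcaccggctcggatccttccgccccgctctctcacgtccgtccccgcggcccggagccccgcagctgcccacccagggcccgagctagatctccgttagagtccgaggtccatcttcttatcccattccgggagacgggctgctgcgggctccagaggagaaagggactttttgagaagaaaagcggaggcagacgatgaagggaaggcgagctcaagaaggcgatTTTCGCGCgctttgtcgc
The 4 E-boxes of Cdk4 begin at -172, -118, -98 and -11 from the start, and the E2F word TTTCGCGC of Rbl1 at -18. Cdk6 held 1 E-box and Rbl2 the word TTTGAA, and Ccne1 held none of the words. These are matches of letters and not shown to be binding sites, and the background shares are those given with the Ccnd3 promoters.

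Cdk6 (chr5:3341004-3531008, plus strand) had 26.9, 28.2, 24.2 and 22.9 FPKM in the preleukemic and 29.1, 16.8 and 31.0 in the leukemic replicates. Leukemic replicate 2 was the lowest of the 7 samples and the other leukemic samples were the highest. The mean difference was -0.04 (SE 0.21, 95% interval -0.52 to 0.44, limma adjusted p = 0.911). Cdk6 took 9.24%, 5.66% and 10.8% of the Cdk4 and Cdk6 total in the leukemic replicates and 9.66% to 10.4% in the preleukemic samples, a difference of -1.33 percentage points (exact permutation p = 0.371, also 0.371 after adjustment). The kinases summed to 300 ± 13.5 FPKM (SD, n = 3) against 258 ± 19.9 (SD, n = 4), with exact permutation p = 0.0571 (0.0762 after adjustment).

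None of the pocket-protein genes was called. Rb1 (chr14:73192858-73325951, minus strand), which encodes the retinoblastoma protein, had 22.5, 20.5, 27.7 and 25.7 FPKM in the preleukemic and 23.0, 29.5 and 21.5 in the leukemic replicates. The groups overlapped fully, and the log2 fold change was 0.03 with a 95% interval of -0.31 to 0.36 (limma adjusted p = 0.910).

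Rbl1 (chr2:157145893-157204534, minus strand) had 35.2, 28.6, 34.0 and 31.2 FPKM in the preleukemic and 46.4, 32.8 and 27.4 in the leukemic replicates. Leukemic replicate 1 was the highest and leukemic replicate 3 the lowest of all samples, and the log2 fold change was 0.11 (95% interval -0.30 to 0.51, limma adjusted p = 0.692).

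Rbl2 (chr8:91070057-91123844, plus strand) encodes p130, the pocket protein known from resting cells. It had 17.9, 19.0, 18.4 and 18.8 FPKM in the preleukemic replicates, the tightest group of all (18.5 ± 0.49, SD, n = 4), and 16.6, 14.2 and 12.0 in the leukemic replicates. All leukemic samples lay lower, and the log2 fold change of -0.37 (SE 0.11) missed the threshold (limma adjusted p = 0.0658). It passed without leukemic replicate 1 (-0.48, adjusted p = 0.0230). Together the pocket-protein genes summed to 74.4 ± 12.7 FPKM (SD, n = 3) against 74.9 ± 4.99 (SD, n = 4), with exact permutation p = 0.914, both before and after adjustment. The Rbl1 share of that sum differed by 4.22 percentage points (exact permutation p = 0.257, 0.343 after adjustment).

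By mean FPKM over all 7 samples the order was Ccnd3 (314), Cdk4 (250), Ccnd1 (44.6), Rbl1 (33.6), Cdk6 (25.6), Rb1 (24.4), Ccne1 (22.8), Rbl2 (16.7), Ccne2 (15.3) and Ccnd2 (13.8). Ccnd1 owed its place to the leukemic samples (mean 83.2), since its preleukemic mean of 15.7 lay under those of Rbl1, Cdk6, Rb1, Rbl2 and Ccne1. Ccnd3 exceeded Cdk4 in all 4 preleukemic samples, and Cdk4 exceeded Ccnd3 in all 3 leukemic samples. Cdk4 and Ccnd1 were the only neighbours in this order whose ranges over the 7 samples did not overlap.

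Each gene was set beside all other genes tested by Pearson correlation of log2(FPKM + 1) over the 7 samples, as a description of samples that share the difference between the groups. Closest to Ccnd3 were Copg2 (r = 0.990), Proser1 (0.985) and Bahd1 (0.984). The closest gene was Csad for Ccnd1 (0.990), Fam122a for Ccnd2 (0.990), Cinp for Ccne1 (0.982), Hspa14 for Ccne2 (0.979), Lyar for Cdk4 (0.994), Setd1a for Cdk6 (0.974), Gpm6a for Rb1 (0.954), Hmgn2 for Rbl1 (0.992) and Atp6v0e2 for Rbl2 (0.985). Among the 10 genes themselves Ccnd1 and Ccnd3 ran opposite (-0.833), as did Cdk6 and Rb1 (-0.878).

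Among the E2F and DP factors, some of which pocket proteins bind, 3 of 10 tested were called higher and 1 lower. That is 40.0%, against 14.7% of all genes, and the median log2 fold change of the list was 0.40. E2f1, an activator of S-phase genes, had 19.9, 14.7 and 14.6 FPKM in the leukemic replicates and 7.49 to 12.3 in the preleukemic samples (0.71, limma adjusted p = 0.0411), a call that was kept without preleukemic replicate 1 and lost without any one of the other 6 samples, with no filter on low values and with equal FPKM sums. E2f4, a repressor E2F that pairs with p107 and p130, had 82.6, 93.8 and 85.1 against 58.3 to 67.5 (0.50, adjusted p = 0.0164). Tfdp1, a DP partner of E2Fs, had 103, 90.5 and 85.6 against 62.3 to 72.8 (0.46, adjusted p = 0.0226). E2f5, the other p130 partner, was the one that fell, from 12.5 to 14.5 FPKM to 8.95, 8.48 and 7.53 (-0.60, adjusted p = 0.0138). With the tested genes kept, 0 of the list were called without preleukemic replicate 3 and 0 without preleukemic replicate 4. Tfdp1 also lost its call without preleukemic replicate 2 and with equal FPKM sums. E2f2, among the 3 most abundant of the list, was not called (-0.06). The MuvB and DREAM list holds 8 genes, some of which, though not Foxm1, form a repressor of cell cycle genes with p107 and p130. None of the 8 was called in limma, with 3 at an unadjusted p under 0.05, and their median was 0.09 (Rbbp4 0.14, Foxm1 0.31 and Lin37 -0.08).

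Of 17 genes that regulate cyclins and their kinases, 4 were called higher and 2 lower (35.3%, against 14.7% of all genes), with a median of -0.02. Cdc37, the chaperone adaptor that loads Cdk4 onto Hsp90, had 165, 153 and 139 FPKM in the leukemic replicates against 103 to 114 (0.50, limma adjusted p = 0.0152). Cks1b (0.70), the phosphatase gene Cdc25a (0.46) and the APC/C activator gene Fzr1 (0.73) were also called higher. Ambra1, which serves in the ubiquitin ligase that degrades D cyclins, had 14.1, 16.7 and 17.2 FPKM against 19.5 to 22.0 (-0.36, adjusted p = 0.0431). Fbxl8 was called lower as well (-0.50). With the tested genes kept, both calls were lost without leukemic replicate 1 and without any one of the preleukemic samples. Without preleukemic replicate 4, 0 of the list were called higher. Skp1a, among the most abundant of the list, was not called (0.16).

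Of 7 CDK inhibitor genes, 5 were tested and 1 was called (20%, against 14.7% of all genes). Cdkn2a, which encodes the Cdk4 and Cdk6 inhibitor p16 and, from another reading frame, Arf, had 19.5, 45.0, 17.7 and 19.2 FPKM in the preleukemic and 9.78, 4.32 and 3.40 in the leukemic replicates (-1.95, limma adjusted p = 0.0245), and gene-level FPKM does not separate the reading frames. With the tested genes kept, the call of Cdkn2a was lost without leukemic replicate 3 and without any one of preleukemic replicates 2, 3 and 4. Cdkn1a was lower without overlap and just missed the threshold (-1.43, limma adjusted p = 0.0510). The more abundant Cdkn1b (-0.13), Cdkn2c (0.06) and Cdkn2d (0.30) were not called.

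Of 35 E2F target genes of S phase, 34 had a log2 fold change above 0 and 5 were called higher, none lower, with a median of 0.47. The 14.3% called is close to the 14.7% called over all genes. Those called included Cdc6 (0.85), Cdt1 (0.95), Orc1 (7.96 to 10.3 FPKM against 3.05 to 6.25) and Orc6 (0.61), all of replication licensing. The most abundant, Pcna (0.32), Rrm2 (0.47) and Mcm7 (0.49), were not called. All 30 mitotic genes lay above 0 with a median of 0.54, and 1 of them, Mki67, was called (0.74, limma adjusted p = 0.0316), while Top2a (0.28) and Ube2c (0.78) were not. That is 3.33% called, under the share over all genes, and the median moved from 0.28 without leukemic replicate 1 (0 called in limma, 3 at an unadjusted p under 0.05) to 0.80 without leukemic replicate 3 (7 called). The summed FPKM of the E2F targets overlapped between the groups, at 3428, 2501 and 2175 in the leukemic replicates against 2365, 1417, 2072 and 1829 in the preleukemic replicates. Red cell precursor markers, whose cells also divide, were also higher in the leukemic group. Within that group, leukemic replicate 1 had the highest E2F target sum (3428) and the lowest red cell precursor sum (5457). Within the preleukemic group, replicate 1 had both the highest E2F target sum (2365) and the highest red cell precursor sum (2626). The part of these cells in the lists was not tested.

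**Figure D4:**
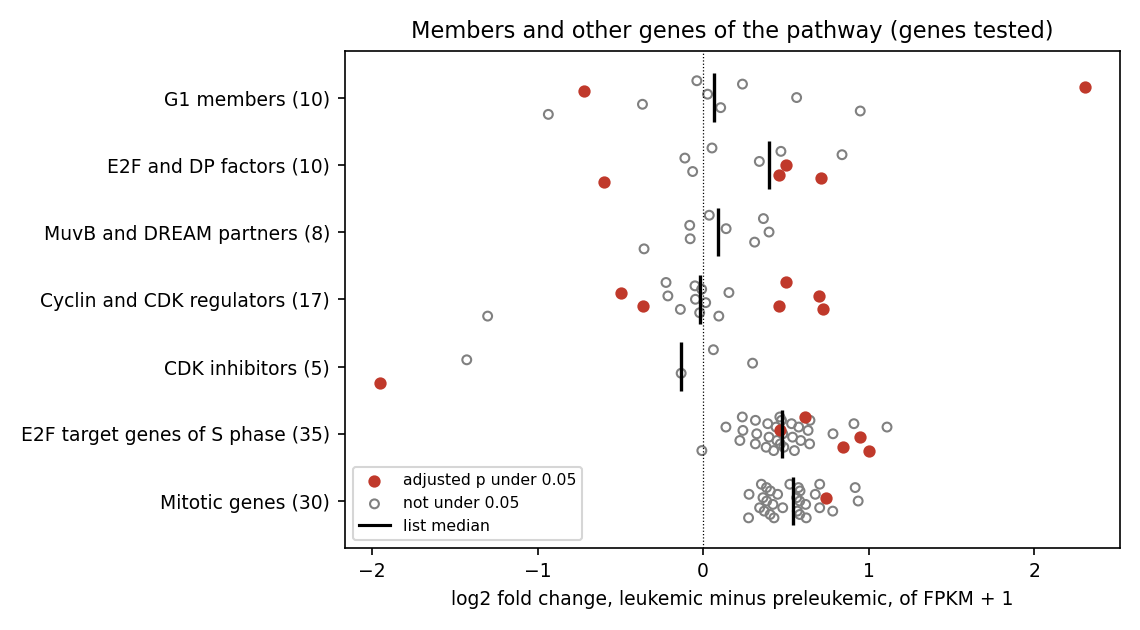
Log2 fold change (leukemic minus preleukemic, of FPKM + 1) of each tested gene in the 10 members and 6 further pathway lists, with genes of adjusted p under 0.05 filled in red and list medians as bars. The list medians are 0.47 for the E2F targets and 0.54 for the mitotic genes, and 0.07 for the 10 members, where Ccnd1 and Ccnd3 lie on opposite sides of 0.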

How the data were processed

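RNA from sorted BCP cells was sequenced by the authors, who deposited 1 FPKM value per gene and sample (24341 genes, none below 0.01). Library preparation was stranded (NEBNext Ultra II, per the labels). The submitters' processing notes name STAR 2.5.0b, bedtools 2.17.0, Cufflinks 2.2.1, Bowtie, DESeq2 and the mm10 build, without stating which step made the table. FPKM is not a count, so no count model was used. The test, on log2(FPKM + 1), was two-sided limma (version 3.58.1 under R 4.3.3, moderated with an intensity trend and without covariates). It covered the 10541 genes whose FPKM summed to 10 or more over the 7 samples, and p-values were adjusted over these (Benjamini-Hochberg). Shares and sums were tested by exact permutation. The sums were added after the data had been seen.

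Groups and replicate numbers came from the sample labels. The labels do not say that each sample is a separate mouse, though the design speaks of 4 and 3 mice, so p-values measure the spread between these samples. Depth was read from 1907 genes with a single transcript over 1500 bases, and it covers counting error only.

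The 10 genes and the gene lists were chosen with earlier results of these data known, and the fit was tested on simulated data. Named are the 10 genes, and for each other pathway list the 3 genes with the highest mean and any gene called, with the closest gene in pattern for each of the 10 (3 for Ccnd3), except for 1 gene that is not reported here. Gene positions and promoters are from RefSeq (GRCm38.p6), which was matched by symbol. The fits without 1 sample were first run with the filter applied again to the other 6 samples. They were changed to keep the tested genes after that first version had shown Ccnd3 losing its call, and both versions are given.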

Additional observations from a re-analysis of the deposited data

Results flagged for a closer look

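Within the preleukemic group, 5 of the values tested lay far from the other 3 samples, by the ratio of the gap to the nearest sample to the group's range (above Dixon's critical value for 4 samples). Chance alone gives about 1 such value in 20 groups, and 44 groups were tested. In preleukemic replicate 2, the Cdk6 share of Cdk4 and Cdk6 FPKM was 10.4% against 9.66% to 9.79% (ratio 0.833), Rbbp4 was 83.7 FPKM against 98.0 to 100.4 (ratio 0.857), and Cdkn2a was 45.0 FPKM against 17.7 to 19.5 (ratio 0.934). In preleukemic replicate 1, E2f4 was 67.5 FPKM against 58.3 to 59.8 (ratio 0.838) and E2f5 was 14.5 FPKM against 12.5 to 12.7 (ratio 0.885). The leukemic group, with 3 samples, was too small for this test.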

How the results depend on the processing

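The fold changes of Ccnd1, Ccnd2, Ccnd3, Ccne1, Ccne2, Cdk4 and Rbl2 kept their direction under every alternative run. The cause of the changes listed here was not tested. The 1553 genes called became 951 with an FPKM sum of at least 70 and 2919 (683 higher, 2236 lower) with equal FPKM sums, which moved the median of all genes by -0.15. The 2 calls among the 10 genes became 1 (Ccnd3) with a pseudocount of 0.1, with no filter on low values and with no intensity trend, where the adjusted p of Ccnd1 was 0.0528, 0.0764 and 0.0562. With equal FPKM sums Rb1 (-0.13) and Rbl1 (-0.055) turned direction, Rbl2 was called (-0.52), and calls numbered 2 among E2F and DP factors, 1 among MuvB and DREAM genes (Lin52, lower), 2 among CDK inhibitors and 3 among E2F targets. CDK inhibitors also had 2 calls with a pseudocount of 0.1 and with quantile normalization (Cdkn1a and Cdkn2a), and E2F targets 2 with no filter. As a log2 difference in place of a share, Ccnd3 differed from the mean of the log2 values of Ccnd1 and Ccnd2 by -1.41 (exact permutation p = 0.0571). That mean gives Ccnd1 and Ccnd2 equal weight, unlike the share, so it is not the share on a log scale.

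Leaving out 1 sample with the tested genes kept, a version adopted after the first had shown Ccnd3 losing its call, gave 149 (without preleukemic replicate 4) to 1620 genes called, 1 to 3 of the 10 genes, 0 to 5 E2F and DP factors, 0 MuvB and DREAM genes throughout, 0 to 4 regulators, 0 to 1 CDK inhibitors, 0 to 5 E2F targets and 0 to 7 mitotic genes. With the filter applied again to the other 6 samples, as these fits were first run, 106 to 1506 genes, 0 to 3 of the 10 and 0 to 2 CDK inhibitors were called, and Ccnd3 lost its call without preleukemic replicate 4. Rb1 ranged from -0.10 to 0.11, Rbl1 from -0.10 to 0.27 and Cdk6 from -0.19 to 0.23, so all 3 turned direction, as did the Cdk6 share (-2.44 to 0.119 percentage points). The Ccnd3 share differed by -26.1 to -17.4 points, where 6 samples allow no p under 0.0667.

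Samples with the same replicate number did not deviate together (correlations of 0.03, 0.05 and -0.09). This gave no sign of pairing, but groups this small cannot exclude a shared batch. With the replicate block, fitted in limma to 6 samples, 0 genes were called (2416 at an unadjusted p under 0.05, among them 3 of the 10 genes), hence 0 of the 10 and 0 in each pathway list, and the adjusted p was 0.141 for Ccnd3 and 0.155 for Ccnd1. Taken with the longest transcript of each gene, counting error was at most 6.90% for any of the 10 genes in any sample.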
